A study of Mus musculus with 6 samples.

Results

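The complement genes examined here are 8 genes of the mouse hippocampus: C1qa, C1qb and C1qc, which encode the chains of C1q, C4b and C3, which encode the central components cleaved after C1q binds, C3ar1 and C5ar1, which encode the receptors for the C3a and C5a fragments, and Serping1, which encodes the C1 inhibitor. They were named as a list of brain complement components, receptors and regulators, matched by symbol, and make up 8 of the 55471 genes in the deposited table. All 8 had counts in all 6 libraries.

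RNA-seq was performed on the hippocampus of 3 p300-ifKO and 3 control male mice of the C57BL/6 strain (C57BL/6J in the methods of the study), 3 to 6 months old, with 1 mouse per library. An ifKO is an inducible forebrain knockout. In p300-ifKO mice the floxed alleles of Ep300, the gene for the acetyltransferase p300, are recombined in the adult by creERT2, a Cre recombinase fused to part of the estrogen receptor, under the Camk2a promoter and after 5 intragastric doses of tamoxifen (20 mg/mL in corn oil). Control mice received the same tamoxifen. The protocol gives them as littermates that lack creERT2, while the description of every control library names the driver Camk2a_creERT2. The driver acts in excitatory neurons of the forebrain, not in glia, vessels or interneurons, and the sequenced tissue holds all of them. A count per gene does not resolve the recombined exon.

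Complement is a cascade of plasma proteins that is also made within the brain. C1q recognises a target and, with C1r and C1s, starts the classical pathway. C4 and then C3 are cleaved and attach to the target, and phagocytes take it up through receptors for C3 fragments. In the brain, C1q is made mostly by microglia and C4 and C3 mostly by glia, and tagging of synapses by C1q and C3 for uptake by microglia is known from development and disease.

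The labels were checked first. Ep300 had 1545, 1474 and 2334 normalized counts (counts divided by the size factor of the library) in control replicates 1, 2 and 3 and 478, 1350 and 912 in p300-ifKO replicates 1, 2 and 3. Every p300-ifKO library lay below every control library, and p300-ifKO replicate 2 lay closest to the controls. On the log2 scale Ep300 differed by −0.97 ± 0.33 (SE), which DESeq2 gave an adjusted p of 0.991. It passed the threshold in 3 of the alternatives in DESeq2: at −1.36 without p300-ifKO replicate 2 (adjusted p 0.000356), at −0.48 with 1 surrogate variable (adjusted p 0.00127), and at −0.88 with a replicate block and offsets for gene length and GC content (adjusted p 0.0143). Esr1, whose coding sequence is part of creERT2, had 87.2 to 109 normalized counts in control and 2416 to 4217 in p300-ifKO libraries. Arsi, which lies beside Camk2a, had 24.2 to 38.8 in control and 168 to 204 in p300-ifKO libraries. The study attributes higher Esr1 and Arsi to the creERT2 transgene. The libraries held between 23151568 and 28433823 counts. Crebbp, the paralogue that encodes CBP, had 1984 to 2180 and 1957 to 2055. The ratio of a library to the overall mean varied with the length of genes. Over 13614 genes (not independent of each other), the Spearman rho was −0.625 in p300-ifKO replicate 1, 0.572 in p300-ifKO replicate 2, −0.39 in p300-ifKO replicate 3 and 0.224 to 0.574 in control libraries. Markers of hippocampal neurons were abundant, with 31103 to 37383 normalized counts of Slc17a7, a vesicular glutamate transporter, and 4506 to 6352 of Neurod6, a transcription factor of pyramidal neurons.

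Across the 8 genes, 5 were higher and 3 lower in p300-ifKO mice, and the median log2 fold change was 0.26, beside −0.046 over the 32773 genes tested. DESeq2 called 0 of the 8 at an adjusted p under 0.05, beside 0.0061% of all genes tested (2 genes, Esr1 and Arsi, a neighbour of Camk2a). The edgeR quasi-likelihood test and limma-voom called 0 of the 8 as well. At an unadjusted p under 0.05 in DESeq2 there were 3 of the 8, C1qa, C1qb and C3, all higher, beside 0.772% of all genes that were higher at that p and 1.32% in either direction. The genes tested include low-count genes, and C1qa and C1qb varied together, so these shares are not a like background. In the DESeq2 fit of genes with 10 counts in at least 3 libraries, 387 genes were under that p, with 17302 adjusted. There C1qa (0.0333) and C3 (0.0257) were under it and C1qb (0.0563) was not. The groups overlapped for all 8 genes, while 3.21% of all genes had every p300-ifKO library above every control library and 3.42% had every one below. The plot of normalized counts by library shows the overlap.

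**Figure D1:**
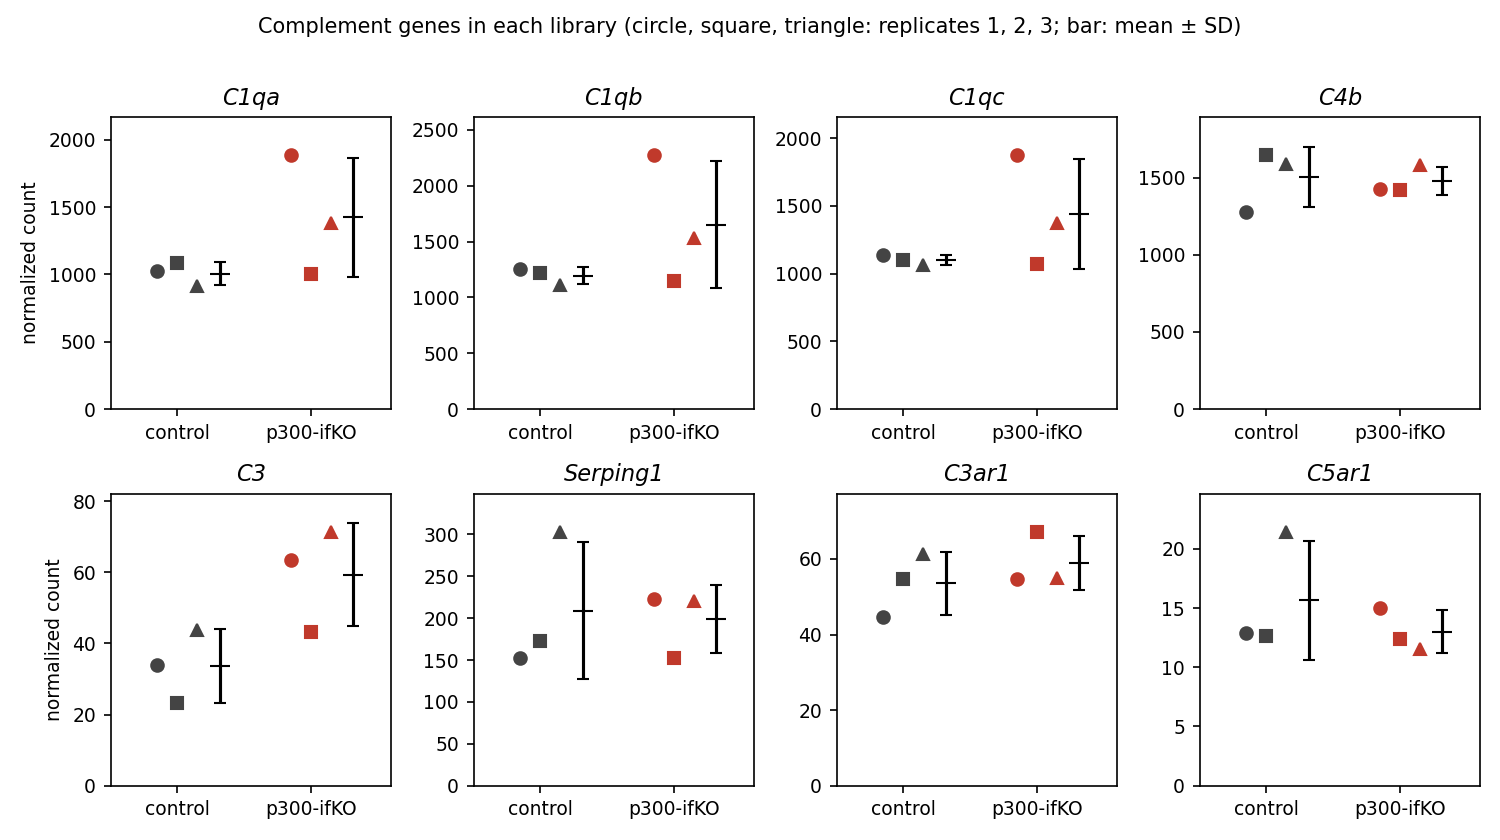
Normalized counts (y axis, from 0, with a scale for each gene) of the 8 complement genes in 3 control (grey) and 3 p300-ifKO (red) libraries, with circles, squares and triangles for replicates 1, 2 and 3 and bars for mean ± SD. C1qa, C1qb and C1qc are high in p300-ifKO replicate 1 and lie among the controls in p300-ifKO replicate 2. Serping1 and C5ar1 are highest in control replicate 3.

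The C1q genes lie in a row on chromosome 4, all on the minus strand of GRCm38: C1qb at chr4:136880129-136886187, C1qc at chr4:136889804-136893065 and C1qa at chr4:136895917-136898803. Together they span 18675 bases, with 3616 bases between C1qb and C1qc and 2851 bases between C1qc and C1qa. Their exonic lengths are 1088, 1931 and 1040 bases, and 0% of the stretches of 50 bases (the read length) in them lie in another gene. The bases upstream of C1qb and C1qc are shown because the genes moved together between libraries. Moving together was not particular to them: genes outside the 8 lay nearer to each C1q gene in profile than the other chains did. RefSeq upstream windows (GRCm38.p6, 250 bases before the RefSeq start, here cut to bases that no GENCODE transcript of the gene covers) were found for 5 of the 8 genes, C1qb, C1qc, C3, C3ar1 and C5ar1. The first sequence is chr4:136886201-136886450 and the second chr4:136893066-136893164, both given 5′ to 3′ on the minus strand. Capitals mark a match to GAGGAA, the core letters bound by PU.1, a transcription factor of the myeloid lineage.
C1qb: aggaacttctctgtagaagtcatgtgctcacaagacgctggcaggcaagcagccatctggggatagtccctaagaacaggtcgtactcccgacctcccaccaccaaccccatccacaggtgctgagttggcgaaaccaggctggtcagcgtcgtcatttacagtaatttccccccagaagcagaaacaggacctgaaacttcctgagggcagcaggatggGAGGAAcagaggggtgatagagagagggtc
C1qc: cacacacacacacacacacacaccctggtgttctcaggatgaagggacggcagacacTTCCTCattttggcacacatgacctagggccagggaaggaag
The match in C1qb lay 30 to 25 bases before the RefSeq start on the strand of the gene, and that in C1qc 193 to 188 bases before it on the opposite strand. On either strand, GAGGAA was found in 2 of the 5 windows and in 23.25% of 32851 RefSeq windows of 250 upstream bases. A match is a description of the letters and not a binding site.

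C1qa encodes the A chain of C1q. It had 1023, 1085 and 911 normalized counts in control replicates 1, 2 and 3 and 1885, 1003 and 1381 in p300-ifKO replicates 1, 2 and 3. p300-ifKO replicates 1 and 3 lay above all controls, and p300-ifKO replicate 2 lay between control replicates 3 and 1. The control mean was 1007 ± 88.2 and the p300-ifKO mean 1423 ± 442 (SD, n = 3 each), so that the spread between p300-ifKO mice was larger than the difference of the means. On the log2 scale C1qa was higher by 0.50 ± 0.23 (SE; 95% interval 0.050 to 0.95). In DESeq2 the unadjusted p was 0.0294 and the adjusted p 0.991.

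C1qb, the gene of the B chain, had 1255, 1217 and 1107 normalized counts in control and 2273, 1150 and 1530 in p300-ifKO replicates 1, 2 and 3. C1qc, the gene of the C chain, had 1134, 1099 and 1066 in the controls and 1873, 1067 and 1370 in p300-ifKO replicates 1, 2 and 3. Both genes had the same order of libraries, with p300-ifKO replicates 1 and 3 on top and p300-ifKO replicate 2 just above control replicate 3, the lowest library. On the log2 scale C1qb was higher by 0.47 ± 0.24 (SE; unadjusted p 0.0499 and adjusted p 0.991 in DESeq2). C1qc was higher by 0.39 ± 0.21 (SE; unadjusted p 0.0667 and adjusted p 0.991 in DESeq2). In edgeR the unadjusted p was 0.0499 for C1qa, 0.0750 for C1qb and 0.0816 for C1qc.

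The chains kept their proportions while their level varied. Of the summed normalized counts per kilobase of the C1q genes, C1qa made up 35.8% to 38.6% over the 6 libraries, C1qb 40.8% to 42.9% and C1qc 19.9% to 22.6%. The share of C1qa averaged 36.7% ± 1.31 in control and 37.7% ± 0.720 in p300-ifKO libraries (SD, n = 3 each). Over the same libraries C1qa itself ranged 2.07-fold from its lowest to its highest normalized count.

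The C1q fold changes depended most on p300-ifKO replicates 1 and 2. With a control library or p300-ifKO replicate 3 left out, they were 0.43 to 0.56 for C1qa, 0.42 to 0.52 for C1qb and 0.37 to 0.42 for C1qc. Without p300-ifKO replicate 1 they were 0.24 for C1qa, 0.17 for C1qb and 0.15 for C1qc, and DESeq2 gave each an adjusted p of 1. When p300-ifKO replicate 2 was left out they were 0.70, 0.67 and 0.56, and all C1q genes passed the threshold in DESeq2 (adjusted p 0.0108, 0.0201 and 0.0247). In that fit of 5 libraries 938 of 11129 genes passed, and 4.43% of all genes tested passed as higher. With offsets for length and GC content in each library, the log2 fold changes were 0.26 for C1qa, 0.24 for C1qb and 0.21 for C1qc, and with 1 surrogate variable 0.14, 0.078 and 0.081. The part of the length trend of the libraries in the C1q difference was not tested beyond these fits.

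**Figure D2:**
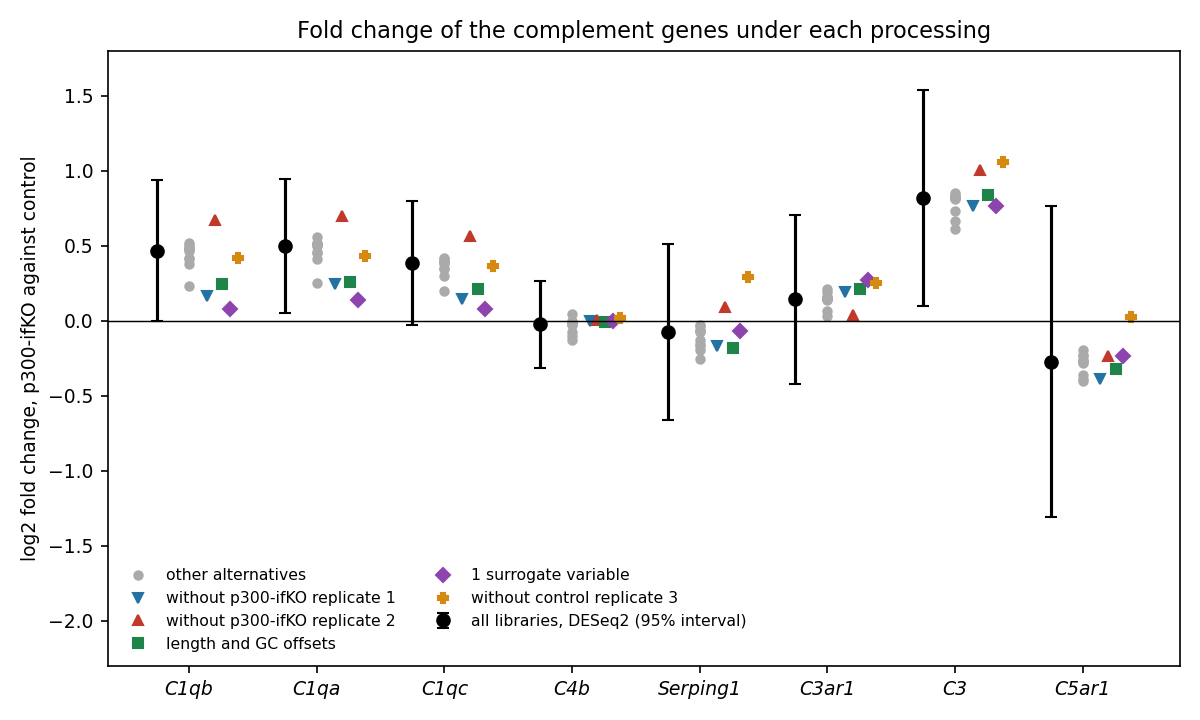
Log2 fold change of each complement gene, p300-ifKO against control (y axis), in DESeq2 with all libraries (black, with the 95% interval) and under the 15 alternatives (grey and coloured symbols). The C1q genes are highest without p300-ifKO replicate 2 and lowest with 1 surrogate variable, C3 stays between 0.61 and 1.06, and C4b stays between −0.13 and 0.047.

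Markers of microglia, the main source of C1q in the brain, were set beside the C1q genes. Fewer cells of a type and less RNA per cell cannot be told apart in bulk tissue. All 12 microglia markers were detected, 7 were higher and 5 lower in p300-ifKO mice, 0 were called in DESeq2, and the median log2 fold change was 0.080. At an unadjusted p under 0.05 in DESeq2 there were 2 of the 12, beside 1.32% of all genes. These were Tyrobp (0.47, p 0.0218) and Trem2 (0.42, p 0.0463), named after their values were seen. In 2 of the 12 every p300-ifKO library lay above every control library and in 0 every one lay below, beside 3.21% and 3.42% of all genes. The summed normalized counts of the 12 markers ran from 9724 to 10479 in control and from 10397 to 11201 in p300-ifKO libraries. Relative to that sum, the log2 ratio of C1qa averaged −3.35 ± 0.076 in control and −2.96 ± 0.42 in p300-ifKO libraries (SD, n = 3 each), and the groups overlapped. With size factors taken from the microglia markers alone, the log2 fold changes were 0.41 for C1qa, 0.38 for C1qb and 0.29 for C1qc, with an adjusted p of 0.987 each in DESeq2.

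The markers did not move alike. P2ry12, a purinergic receptor, had 1090, 1100 and 1027 normalized counts in control and 981, 1144 and 1056 in p300-ifKO replicates 1, 2 and 3, so that p300-ifKO replicate 1 was the lowest. Cx3cr1, the fractalkine receptor, was also lowest there (1077, against 1145 to 1420 in the other libraries). Tmem119, a membrane protein of microglia, had 580, 540 and 514 in the controls and 786, 559 and 612 in p300-ifKO replicates 1, 2 and 3, the same order of p300-ifKO libraries as for C1q. Of 11 markers read gene by gene, 6 were highest and 4 lowest in p300-ifKO replicate 1. There the log2 ratio to the control mean ran from −0.61 for Sall1 to 1.12 for Aif1, and the C1q genes lay between 0.77 and 0.93. In p300-ifKO replicate 2 the markers lay between −0.33 and 0.15 and the C1q genes between −0.053 and −0.0052. Sall1 and Aif1 were named after their values were seen, as the ends of the range. The plot of these ratios against exonic length shows each of these markers.

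**Figure D3:**
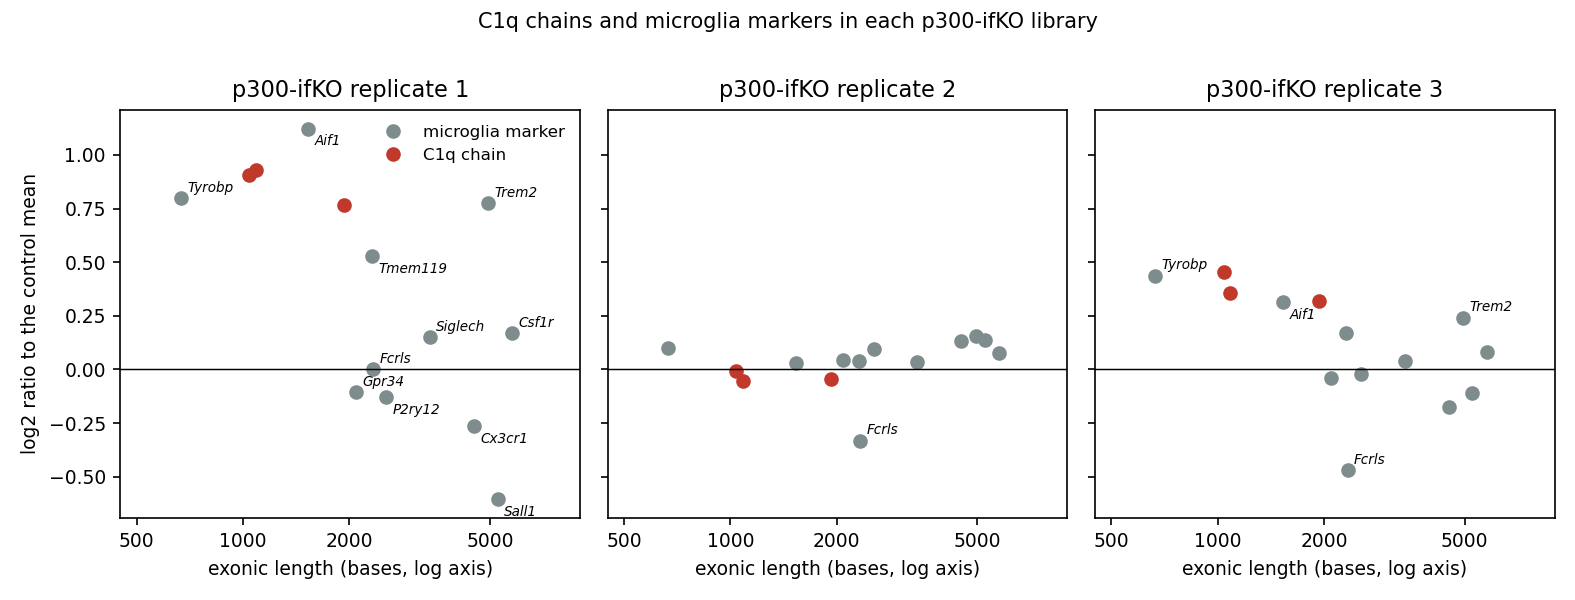
Log2 ratio of the normalized count in each p300-ifKO library to the control mean (y axis) against exonic length in bases (x axis, log scale) for the 3 C1q genes (red) and 11 microglia markers (grey); markers past 0.2 either way are named in the panels of replicates 2 and 3. In replicate 1 the C1q genes lie near Tyrobp, Aif1 and Trem2 and above P2ry12, Cx3cr1 and Sall1, and in replicate 2 they lie near 0.

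C4b (chr17:34728380-34743882, minus strand) encodes complement component 4, which is cleaved by the activated C1 complex. It had 1279, 1644 and 1587 normalized counts in control and 1428, 1422 and 1583 in p300-ifKO replicates 1, 2 and 3. All p300-ifKO libraries lay within the range of the controls. The control mean was 1503 ± 197 and the p300-ifKO mean 1478 ± 91.0 (SD, n = 3 each). The difference on the log2 scale was −0.025 ± 0.15 (SE; 95% interval −0.31 to 0.26; DESeq2 adjusted p = 0.997), and over the alternatives it ran from −0.13 to 0.047. C4b and its neighbouring copy C4a are nearly identical in places: 34.57% of the stretches of 50 bases in C4b also lie in C4a, and reads from those would be lost to the mapping quality limit. Of the normalized counts given to either gene, C4b held 95.3% to 96.7% in every library.

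C3 (chr17:57203970-57228136, minus strand) encodes the component on which the classical, lectin and alternative pathways meet. Its upstream window (chr17:57228137-57228386, minus strand) is shown because C3 had the largest fold change of the 8 genes. Capitals mark a match to TTGCNNAA, letters bound by factors of the C/EBP family, which lay 45 to 38 bases before the RefSeq start on the strand of the gene.
C3: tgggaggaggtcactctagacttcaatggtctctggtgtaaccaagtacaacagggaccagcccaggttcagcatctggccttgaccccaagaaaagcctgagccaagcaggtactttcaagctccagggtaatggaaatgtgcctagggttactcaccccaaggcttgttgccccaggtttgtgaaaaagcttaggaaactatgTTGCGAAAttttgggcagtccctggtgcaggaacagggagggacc
TTGCNNAA was found on either strand in 1 of the 5 windows and in 9.564% of the 32851 windows. TTCNNNGAA, the letters of a STAT element, was found in 0 of the 5 and in 7.02%, and TGACGTCA, the element bound by CREB, whose coactivator is p300, in 0 of the 5 and in 1.546%.

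The level of C3 was low. It had 33.8, 23.1 and 43.9 normalized counts in control and 63.4, 43.3 and 71.4 in p300-ifKO replicates 1, 2 and 3, from 22 to 74 raw counts per library. p300-ifKO replicates 1 and 3 lay above all controls, and p300-ifKO replicate 2 lay just under control replicate 3. The control mean was 33.6 ± 10.4 and the p300-ifKO mean 59.3 ± 14.5 (SD, n = 3 each). On the log2 scale C3 was higher by 0.82 ± 0.37 (SE; 95% interval 0.095 to 1.54). In DESeq2 the unadjusted p was 0.0265 and the adjusted p 0.991. In edgeR they were 0.0297 and 0.745. Unlike the C1q fold changes, that of C3 moved little with length and GC offsets (0.84) or 1 surrogate variable (0.77). Over all alternatives the fold change of C3 ran from 0.61 without control replicate 2 to 1.06 without control replicate 3. Its unadjusted p in DESeq2 was 0.0238 with these offsets and 0.0727 with 1 surrogate variable. Over the DESeq2 alternatives that p ran from 0.014 without control replicate 3 to 0.158 without p300-ifKO replicate 3. The adjusted p of C3 was 0.745 or more wherever one was given, and DESeq2 gave it none without p300-ifKO replicate 2 (unadjusted p 0.0169).

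Markers of the cells that make C4 and C3 were read beside them. Of 8 markers of reactive astrocytes, 3 were higher and 5 lower in p300-ifKO, with 0 called in DESeq2 and a median log2 fold change of −0.066. Gfap, an intermediate filament of astrocytes, had 8355 to 9154 normalized counts in control and 11763, 8485 and 9268 in p300-ifKO replicates 1, 2 and 3, and Vim 1001 to 1289 and 1029 to 1437. Of 10 general astrocyte markers, 2 were higher and 8 lower, with 0 called in DESeq2 and a median of −0.11. Their summed normalized counts were 131296 to 134676 in control and 118533 to 127751 in p300-ifKO libraries, which did not overlap. Gene by gene, every p300-ifKO library lay below every control library in 2 of the 10, beside 3.42% of all genes. These were Slc1a3, another glutamate transporter (19092 to 21391 in control, 16005 to 18413 in p300-ifKO libraries), and Slc4a4 (4494 to 5582 and 3092 to 4407). On the log2 scale they were at −0.25 and −0.36, with unadjusted p 0.0316 and 0.0364 and adjusted p 0.991 each in DESeq2. The largest part of the sums was Slc1a2, a glutamate transporter, whose groups overlapped (67575 to 71532 in control, 57802 to 68192 in p300-ifKO libraries). Slc1a2, Slc1a3 and Slc4a4 were named after their values were seen. Aqp4, the water channel of astrocytes, had 2968 to 3373 normalized counts in control and 1964 to 3513 in p300-ifKO libraries, and Aldh1l1, an enzyme of folate metabolism, 1179 to 1371 and 1084 to 1358. Their part in the values of C4b and C3 was not tested.

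Serping1 (chr2:84765387-84775444, minus strand) encodes the inhibitor of C1r, C1s and the MASP proteases. It had 152, 172 and 303 normalized counts in control and 223, 152 and 221 in p300-ifKO replicates 1, 2 and 3. Control replicate 3 stood above the other 5 libraries. The control mean was 209 ± 82.0 and the p300-ifKO mean 199 ± 40.5 (SD, n = 3 each). The difference on the log2 scale was −0.075 ± 0.30 (SE; 95% interval −0.66 to 0.51; DESeq2 adjusted p = 0.991). Its direction turned without control replicate 3 (0.29) and without p300-ifKO replicate 2 (0.090). Control replicate 3 also had the highest sums of fibroblast markers (4579, against 2134 to 3596 in the other libraries) and of markers of border macrophages (261, against 116 to 174), and its sum of choroid plexus markers was 3880, against 814 to 1906 in 4 libraries and 5597 in p300-ifKO replicate 3. All 8 fibroblast markers were lower in p300-ifKO, with 0 called in DESeq2 and a median log2 fold change of −0.44. Of 7 border macrophage markers 2 were higher and 5 lower (median −0.17), and all 8 choroid plexus markers were higher (median 0.36), with 0 called in DESeq2 in either list. Control replicate 3 was the highest library for Mrc1 (99 normalized counts, against 34.4 to 63.6 in the others) and Cd163 (45.9, against 17.7 to 32.8), scavenger receptors of macrophages. It came after p300-ifKO replicate 3 for Ttr, the thyroxine carrier transthyretin (2804 and 4488, against 118 to 908), and Folr1, a folate receptor (43.9 and 55.9, against 20.0 to 30.1). Dcn, a proteoglycan of connective tissue, had 1785 to 2562 normalized counts in control and 1074 to 1917 in p300-ifKO libraries, and Lum, another, 124 to 193 and 97.7 to 134. The part of these cells in the level of Serping1 was not tested.

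C3ar1 (chr6:122847138-122856161, minus strand), the gene of the C3a receptor, had 44.7, 54.6 and 61.2 normalized counts in control and 54.8, 67.2 and 55.0 in p300-ifKO replicates 1, 2 and 3. p300-ifKO replicate 2 was the highest library, unlike for C1q and C3. The difference on the log2 scale was 0.14 ± 0.29 (SE; 95% interval −0.42 to 0.71; DESeq2 adjusted p = 0.991). C5ar1 (chr7:16246743-16259540, minus strand), the gene of the C5a receptor, had 12.9, 12.6 and 21.4 normalized counts in control and 15.0, 12.4 and 11.6 in p300-ifKO replicates 1, 2 and 3, from 12 to 21 raw counts per library. Control replicate 3 was the highest, and without it the log2 fold change went from −0.27 ± 0.53 (SE; DESeq2 adjusted p = 0.991) to 0.025. The 95% intervals of both receptors included differences of the size found for the C1q genes, with that of C5ar1 from −1.31 to 0.77. Neutrophils and monocytes, which carry both receptors, left few reads: the summed normalized counts of their 7 markers were 8.40 to 25.5 in control and 26.9 to 38.9 in p300-ifKO libraries, 7 of 7 were higher, and DESeq2 called 0. S100a8 and S100a9, the first of these markers, had 1.05 to 4.08 and 4.20 to 11.2 normalized counts in control and 5.37 to 11.6 and 10.7 to 15.9 in p300-ifKO libraries. In 1 of the 7, S100a8, every p300-ifKO library lay above every control library, beside 3.21% of all genes. These values are near the floor, with 33 and 62 raw counts of S100a8 and S100a9 over the 6 libraries. The part of these cells in the receptor and C3 values was not tested.

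Levels were compared between genes per exonic length, in normalized counts per kilobase averaged over the 6 libraries. The order was C1qb (1307), C1qa (1168), C1qc (657), C4b (262), Serping1 (87.7), C3ar1 (13.1), C3 (9.04) and C5ar1 (5.57). In each of the 6 libraries C1qb was above C1qa, C1qa above C1qc, C1qc above C4b, C4b above Serping1 and Serping1 above C3ar1. C3ar1 was above C3, and C3 above C5ar1, in 5 of the 6. The ranges over libraries overlapped between C1qb and C1qa, C1qa and C1qc, C3ar1 and C3, and C3 and C5ar1. The order was the same when counts were scaled by the library total in place of the size factor.

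**Figure D4:**
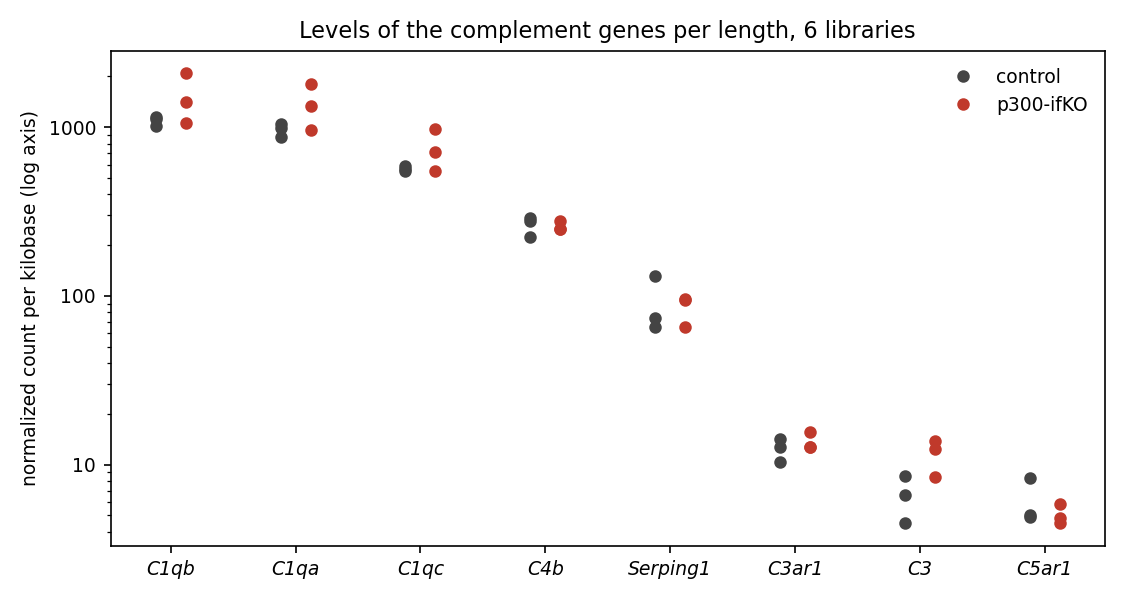
Normalized counts per kilobase of exon (y axis, log scale) of the 8 complement genes in 3 control (grey) and 3 p300-ifKO (red) libraries, ordered by their mean. C1qb, C1qa and C1qc averaged 1307, 1168 and 657, and C3ar1, C3 and C5ar1 averaged 13.1, 9.04 and 5.57.

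For each of the 8 genes, the 3 genes with the most similar profile were sought, by the root mean square difference over the 6 libraries of the log2 normalized counts (pseudocount 1), centred on the mean of each gene. Among 13614 genes with a mean of at least 50 normalized counts, those of C1qa were Blvrb (0.028), Ctxn2 (0.032) and Nt5c (0.034), against a range of 1.05 for C1qa itself. Those of C4b were Dok3 (0.037), 2700049A03Rik (0.050) and Dclk3 (0.050), and those of C3 were Slfn2 (0.17), Rpl14-ps1 (0.22) and Oasl2 (0.23). Of the 24 nearest genes found for the 8, 0 were themselves among the 8. Each C1q gene thus had at least 3 genes outside the 8 nearer in profile than the other chains.

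The rest of the pathway was read in a list of 48 other complement genes, of which 44 had a count. Of these, 25 were higher and 19 lower in p300-ifKO mice, with a median log2 fold change of 0.060, 0 were called in DESeq2 and 1 had an unadjusted p under 0.05, beside 1.32% of all genes. In 3 of the 44 every p300-ifKO library lay above every control library and in 2 every one lay below, beside 3.21% and 3.42% of all genes. C1rb, Mbl1, C6 and C9 had 0 counts.

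Of 5 detected genes of the classical pathway beyond the 8, 3 were higher and 2 lower. C1ra and C1s1, proteases that join C1q in the C1 complex, had log2 fold changes of 0.19 (SE 0.34) and 0.11 (SE 0.41), and C4a −0.19 (SE 0.28). These values are uncertain, since 50.82% of the 50-base stretches of C1ra, 35.11% of those of C1s1 and 30.56% of those of C4a lie in another gene. Of 8 detected genes of the lectin pathway, 4 were higher and 4 lower. Masp1, a protease of that pathway, had 262, 251 and 235 normalized counts in control and 274, 290 and 289 in p300-ifKO replicates 1, 2 and 3. Its groups did not overlap, and the log2 difference was 0.19 ± 0.15 (SE; DESeq2 adjusted p = 0.991). Colec11, a soluble collectin, had 18.9, 13.7 and 16.3 in the controls and 55.8, 24.7 and 20.3 in p300-ifKO replicates 1, 2 and 3. Its groups did not overlap either, and it was higher by 1.04 ± 0.52 (SE) on the log2 scale, with unadjusted p 0.0447 and adjusted p 0.991 in DESeq2. Without p300-ifKO replicate 1 the difference was 0.46, and with 1 surrogate variable 0.52. Colec12, a scavenger receptor, was at −0.46 (SE 0.31), with 290 normalized counts in control replicate 3 against 116 to 166 in the other libraries. It was at −0.054 without that library.

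In the alternative pathway, Cfp (properdin, which stabilises the C3 convertase) had 409 to 435 normalized counts in control and 388 to 462 in p300-ifKO libraries. Cfb was low, with 4.97 to 11.2 against 2.15 to 4.82, did not overlap between groups, and shares 73.01% of its 50-base stretches with an overlapping gene. Cfd had 2 reads in all. In the terminal pathway, C8g had 72.6 to 91.4 in control and 87.0 to 100.3 in p300-ifKO libraries. C7 had 23.9, 17.9 and 22.5 in the controls and 8.59, 15.0 and 9.64 in p300-ifKO replicates 1, 2 and 3. The C7 groups did not overlap, and the log2 difference was −0.94 ± 0.51 (SE), with unadjusted p 0.0645 and adjusted p 0.991 in DESeq2, and 0.0205 and 0.745 in edgeR. Hc, the gene of C5, had 3.98 to 14.3 in control and 5.79 to 15.0 in p300-ifKO libraries.

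All 16 regulators had a count, 9 were higher and 7 lower. Clu, or clusterin, an abundant protein of astrocytes that also inhibits the terminal complex, had 23406, 23168 and 21908 normalized counts in control and 33690, 20429 and 24030 in p300-ifKO replicates 1, 2 and 3. p300-ifKO replicate 1 stood above the rest, as for C1q, and p300-ifKO replicate 2 was the lowest. The log2 difference of Clu was 0.19 ± 0.19 (SE; DESeq2 adjusted p = 0.991). Vtn, or vitronectin, had 1593 to 1812 in control and 2322, 1458 and 1840 in p300-ifKO replicates 1, 2 and 3, and Susd4, a neuronal membrane regulator, 4516 to 5431 and 4808 to 5948. Csmd2 and Csmd3, large membrane proteins of neurons with complement control domains, were the only other complement genes called without p300-ifKO replicate 2 in DESeq2 (−0.64 and −0.98, adjusted p 0.0239 and 0.0101). In that fit 938 of 11129 genes passed. With all libraries Csmd2 and Csmd3 were at −0.27 (SE 0.27) and −0.55 (SE 0.32). Their exonic lengths are 17077 and 16882 bases, and the part of the length trend of the libraries in these values was not tested. Both were named for that call after their values were seen.

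Of 7 receptor genes beyond the 8, 3 were higher and 4 lower. Itgam and Itgb2 encode the subunits of complement receptor 3, through which microglia bind C3 fragments. Itgam had 212, 217 and 197 normalized counts in control and 284, 232 and 263 in p300-ifKO replicates 1, 2 and 3. Its groups did not overlap, and it was higher by 0.31 ± 0.17 (SE) on the log2 scale, with unadjusted p 0.0650 and adjusted p 0.991 in DESeq2. Its counts are uncertain, since 66.34% of its 50-base stretches lie in an overlapping gene. Itgb2 had 167, 125 and 151 in the controls and 166, 163 and 184 in p300-ifKO replicates 1, 2 and 3 (0.21, SE 0.20), and Cd93 166 to 202 and 112 to 213 (−0.10, SE 0.26). The plot of complement genes by role sets them beside the 8.

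**Figure D5:**
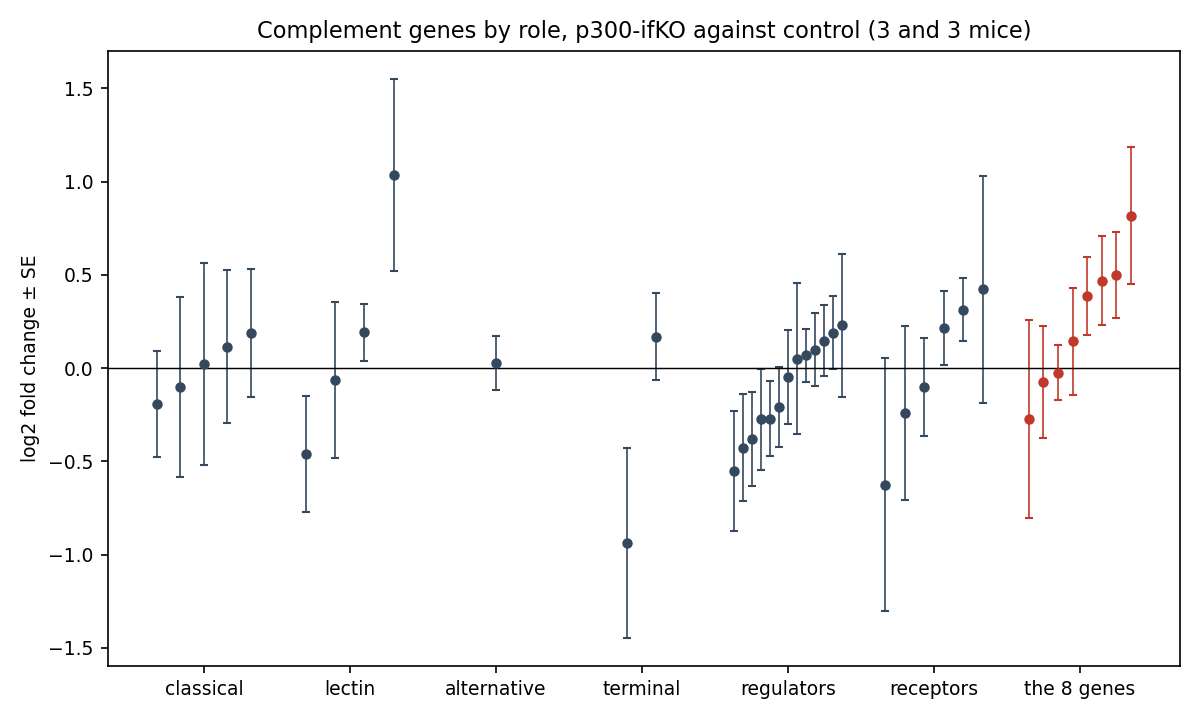
Log2 fold change ± SE (y axis, p300-ifKO against control, DESeq2, 3 and 3 mice) of complement genes with a mean of at least 10 normalized counts, grouped by role (31 other complement genes, dark blue, and the 8 genes, red) and ordered within each group by the fold change. Values lie on both sides of 0 in every group with more than 1 gene plotted, and none passed the threshold.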

How the data were processed

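The authors sequenced single-end 50-base reads of total hippocampal RNA, trimmed them with Trim Galore (0.6.4), aligned them to GRCm38 with STAR (2.6.1), kept reads with a mapping quality above 10 and counted them on exons of Ensembl release 99 genes with Rsubread. The deposited table held raw counts and the exonic length of each gene in bases, which no authors' normalization had changed. The strand setting is not given in the sources used here. Groups came from the sample titles, and the number of unused columns was 0.

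The 8 genes, the other lists and the tests were chosen with earlier results of these data known. Symbols were matched for 55144 of 55471 genes. The main test was the Wald test of DESeq2 (1.42.0, R 4.3.3; the study used 1.30.1), two-sided, with median-of-ratios size factors, no covariate and Benjamini-Hochberg adjustment over 32773 genes at 0.05. Normalized counts are counts divided by the size factor (0.931 to 1.13). Intervals are 95% Wald intervals. Alternatives were edgeR (4.0.16), limma-voom (3.58.1), TMM factors, a minimum of 10 counts in 3 libraries, a replicate block, length and GC offsets (mgcv 1.9.3, mean normalized count above 10), 1 surrogate variable (sva 3.50.0), size factors from microglia markers and leaving out each library. The DESeq2, edgeR, limma-voom, block, surrogate variable and offset fits were also run on simulated data with known changes. Those data held no length, GC or replicate trend, so they cannot show how the fits handle one. Libraries of all 15 pairs differed by more than sampling noise (chi-square per degree of freedom 4.72 or more). With 3 mice per group, p-values rest on the spread between these mice.

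Beyond the 8, named genes were the 3 most abundant per length in each complement role, called complement genes, Ep300, Crebbp, Esr1 and Arsi, the first 4 microglia markers (1 is not reported here) and the first 2 of each other marker list described, and the 3 nearest profiles of C1qa, C4b and C3. Promoter windows came from RefSeq, and the coordinates of genes from GENCODE on GRCm38.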

Additional observations from a re-analysis of the deposited data

How the results depend on the processing

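Of the 8 complement genes, DESeq2, edgeR and limma-voom called 0 under each of the 14 alternatives other than leaving out p300-ifKO replicate 2. Leaving out 1 library gave from 0 to 3 called complement genes of the 8, from 0 to 2 of the other complement genes, and from 2 to 938 genes in all, with the highest counts without p300-ifKO replicate 2. That fit gave an adjusted p to 11129 genes only, and C3, C3ar1 and C5ar1 were not among them. The fit with the replicate block called 4 genes in all and that with the block and length and GC offsets 5, but 0 of the 8 or of the other complement genes in either. The labels state no pairing of mice, though the library names carry matching numbers in control and p300-ifKO. Deviations of same-numbered libraries from their group means correlated by 0.365, −0.371 and 0.158. The libraries also differ in their length trend, so these correlations cannot show whether mice were paired. Scaling by the microglia markers moved the median log2 fold change of all genes from −0.046 to −0.13.

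C1qa, C1qb, C1qc, C3 and C3ar1 kept their direction under all 15 alternatives. Directions turned as follows, with 0 of these genes past the threshold, and the cause was not tested. C4b was 4.1e-05 with the block and offsets, and from −0.13 to 0.047 with 1 library left out. In such fits Serping1 ran from −0.26 to 0.29, C5ar1 from −0.40 to 0.025, Clu from −0.039 to 0.34, Susd4 from −0.023 to 0.14, Vtn from −0.037 to 0.30, Cfp from −0.024 to 0.10, Cd93 from −0.29 to 0.13, C1s1 from −0.087 to 0.40 and Hc from −0.39 to 0.96. With 1 surrogate variable, Clu was −0.086, Susd4 −0.069, Vtn −0.064, Cfp −0.044, Cd93 0.18, C1s1 −0.060 and Hc −0.083. With length and GC offsets, Vtn was −0.00026, Cfp −0.12 and Crebbp 0.11. Those offsets also moved Masp1 to 0.35 and Colec12 to −0.27, and 1 surrogate variable moved Itgam to 0.20 and Colec12 to −0.14, without turning them. With the block and these offsets, Vtn was −0.0020, Cfp −0.13 and Crebbp 0.11. C3 and C5ar1 held 281 and 86 raw counts over the 6 libraries, which limits what their values can show.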
